A study of Mus musculus with 6 samples.

Results

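Retinoic acid synthesis and binding were described through 9 genes, chosen by name as the carriers, enzymes, binding proteins and receptor of the vitamin A pathway and found by their Ensembl identifiers among the 46078 genes of each count table. They were *Rbp4*, *Stra6*, *Aldh1a1*, *Aldh1a2*, *Aldh1a3*, *Crabp1*, *Crabp2*, *Cyp26b1* and *Rarb*. The tissue came from wild type C57BL/6J mice aged 3 months, male per the study's methods, whose stroke had been made by distal middle cerebral artery occlusion combined with hypoxia (the DH model). The infarct and the equivalent region of the contralateral cortex were dissected by eye 7 weeks later, with 3 libraries of each, so the contralateral libraries are cortex from the uninjured hemisphere of mice that had also had a stroke and not cortex from uninjured mice. The labels record no treatment and do not tie an infarct to a contralateral sample of the same mouse or say that the 3 samples of a region came from separate mice, so the p-values measure the spread between these samples only. The question was which transcripts differ between chronic infarct and contralateral cortex.

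All-*trans* retinoic acid is the hormone-like form of vitamin A. Retinol travels in plasma bound to retinol binding protein, encoded by *Rbp4*, and enters cells through the membrane receptor encoded by *Stra6*. Within the cell, retinol is oxidized to retinaldehyde, and retinaldehyde dehydrogenases (*Aldh1a1*, *Aldh1a2*, *Aldh1a3*) oxidize that irreversibly to retinoic acid. Cellular retinoic acid binding proteins (*Crabp1*, *Crabp2*) carry the product, nuclear retinoic acid receptors (*Rara*, *Rarb*, *Rarg*) bind it on DNA as heterodimers with retinoid X receptors, and the cytochrome P450 enzyme *Cyp26b1* oxidizes it for clearance. In the brain, the leptomeninges are a well-known source of retinoic acid made by *Aldh1a2*.

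The sites that retinoic acid receptors read are direct repeats of a hexamer, and *Rarb* carries the textbook example at its own promoter. The hexamer AGGTCA and its variants, which were AGTTCA together with GGGTCA as well as GGTTCA, were therefore sought as direct repeats with 1, 2 or 5 bases between them, on both strands of the 300-base RefSeq promoter windows (250 bases before to 50 after each start, build GRCm38.p6). Of the 9 genes, 7 had windows, 12 in all, and 1 window matched, that of *Rarb*. Among the 49 other retinoid genes listed for comparison, 36 had windows and 2 matched, *Cyp26a1* and *Bco1*. Of all 32851 windows, 0.588% held such a repeat, 0.0974% with 5 bases between the hexamers. The 150 bases up to the start are shown for *Rarb* (chr14:16575477-16575626, minus strand, inside the annotated span of the gene) and, because it is the other window with a spacing of 5 bases, for *Cyp26a1* (chr19:37697658-37697807, plus strand). The capitals mark the hexamers.
*Rarb*: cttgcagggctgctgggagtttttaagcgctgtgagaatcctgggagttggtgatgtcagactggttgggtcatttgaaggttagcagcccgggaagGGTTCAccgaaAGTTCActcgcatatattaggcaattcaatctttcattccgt
*Cyp26a1*: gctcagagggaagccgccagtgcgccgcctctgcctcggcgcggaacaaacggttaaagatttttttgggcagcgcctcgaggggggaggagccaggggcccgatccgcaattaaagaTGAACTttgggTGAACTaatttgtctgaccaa
The *Rarb* repeat (chr14:16575513-16575529) began 53 bases before the start and read in the direction of the gene, whereas the *Cyp26a1* repeat (chr19:37697776-37697792) lay on the other strand. These are matches of letters, with no measurement of binding in this study. The transcripts of these genes differed in level: *Rarb* was detected at 158 counts or more in every library, whereas *Cyp26a1*, which encodes another retinoic acid hydroxylase, had no more than 3 counts in any library.

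The libraries held 12146959 to 13427057 reads assigned to genes in infarct and 11943570 to 19933962 in contralateral cortex. Levels are given as CPM, which brings the counts of each library to a common total, scaled by the trimmed mean of M values (TMM). A gene was called when edgeR's quasi-likelihood test gave a Benjamini-Hochberg adjusted p under 0.05 (over 15554 genes) together with a fold change over 2. Infarct and contralateral libraries were far apart: 46.6% of all genes tested were called, 25.7% higher and 20.9% lower in infarct, and 72.3% had CPM values that did not overlap between the regions. Neuronal markers were lower in infarct in 12 of 12 cases, including *Snap25* and *Rbfox3*, with summed CPM of 742 to 2152 against 10875 to 11880. Tissue labelled as infarct thus held much less neuronal RNA, with summed CPM of 742 and 985 in libraries 1 and 2 and 2152 in library 3. The contralateral libraries had the markers of cortex.

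The low-count filter left 8 of the 9 genes. In infarct, 5 rose (*Stra6*, *Crabp2*, *Aldh1a2*, *Rarb* and *Aldh1a1*) and 1 fell (*Rbp4*), which makes 6 of 8 called, beside 46.6% of all genes. The CPM values of 6 genes lay wholly above those of contralateral cortex (37.6% of all genes did) and those of 1 gene wholly below (34.7% of all genes). *Cyp26b1* and *Aldh1a3* were not called, and *Crabp1* had too few reads to test. The median log2 fold change of the 8 genes was 1.87, beside 0.03 for all genes tested. These are bulk libraries, so fewer cells of a type and less RNA per cell cannot be told apart.

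**Figure D1:**
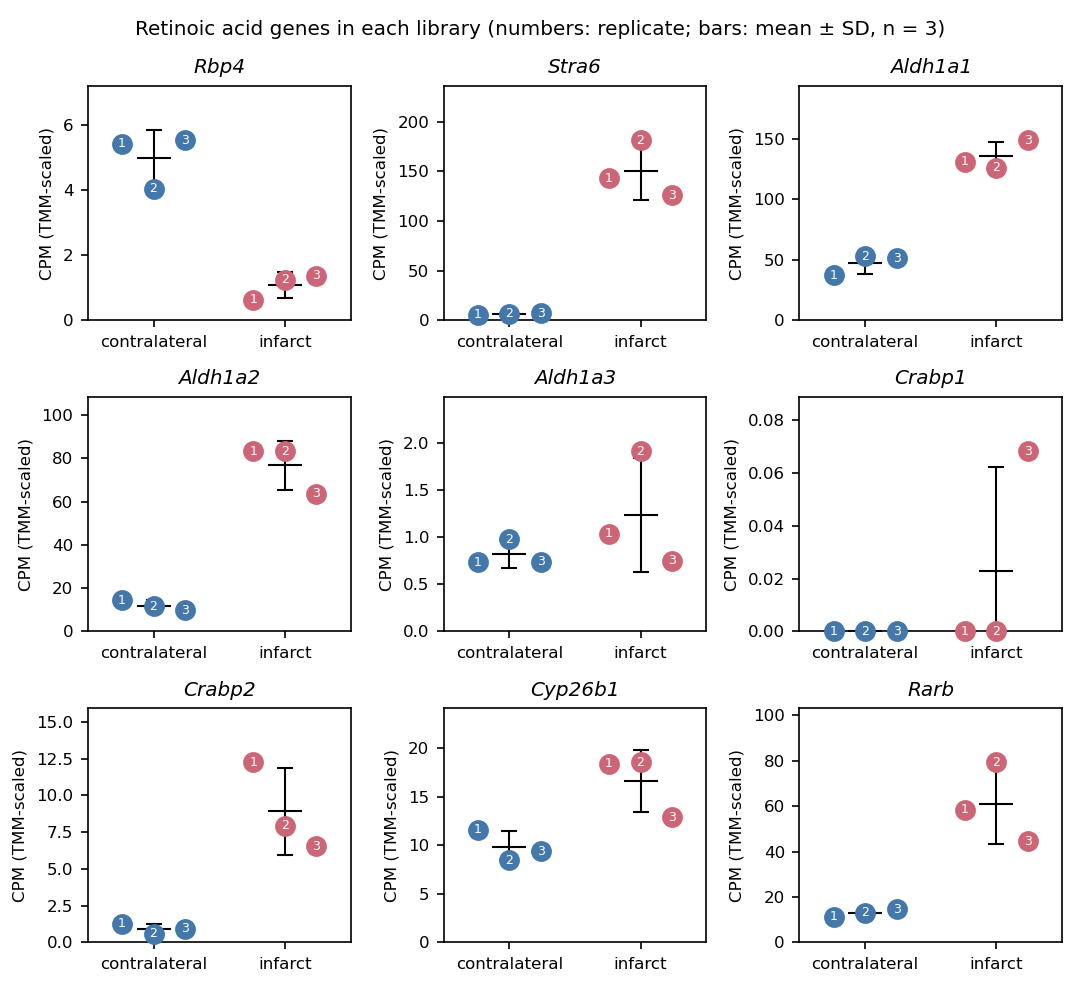
TMM-scaled CPM (linear axis, a separate range in each panel) of the 9 genes in each library of contralateral cortex (blue) and infarct (red). Numbered points are libraries, and bars show the mean and SD of 3 libraries. The infarct points lie above all contralateral points for *Stra6*, *Aldh1a1*, *Aldh1a2*, *Crabp2*, *Cyp26b1* and *Rarb*, and below them for *Rbp4*. For *Aldh1a3* the regions overlap, with infarct libraries 1 and 2 above the contralateral points and infarct library 3 within their range. The *Crabp1* panel rests on 1 read.

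The carrier and the receptor for retinol moved in opposite directions. *Rbp4* (ENSMUSG00000024990, GRCm38 chromosome 19, 38116629 to 38125281, minus strand), whose regulatory sequences also drive a Cre line used to label deep-layer cortical neurons, was counted 8, 17 and 20 times in infarct libraries 1 to 3, or 0.637, 1.25 and 1.37 CPM. In contralateral libraries 1 to 3 it had 104, 62 and 60 counts, or 5.43, 4.04 and 5.54 CPM. The regions did not overlap, and the gene was low in both. *Rbp4* fell by 2.18 on the log2 scale (SE 0.36, 95% interval −2.98 to −1.39), and edgeR's adjusted p was 4.28e-04.

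*Stra6* (ENSMUSG00000032327, chromosome 9, 58063788 to 58153996, plus strand), the retinol uptake receptor named for its stimulation by retinoic acid, had 1796, 2470 and 1843 counts in infarct, or 143, 181 and 126 CPM. The contralateral libraries had 108, 101 and 76 counts, or 5.64, 6.58 and 7.01 CPM. Every infarct library was far above every contralateral library. The log2 fold change was 4.55 (SE 0.20, 95% interval 4.11 to 5.0, edgeR adjusted p = 1.81e-07), a 23.5-fold difference and the largest of the 8 genes tested. Per kilobase of exon, the ratio of *Stra6* to *Rbp4* was 51.7, 33.5 and 21.2 in the infarct libraries. In the contralateral libraries it was 0.239, 0.375 and 0.292. By this measure, which depends on the exon lengths used, the receptor transcript exceeded that of the carrier in infarct and was below it in contralateral cortex.

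Of the retinaldehyde dehydrogenases, both genes that were well expressed rose. *Aldh1a2* (ENSMUSG00000013584, chromosome 9, 71215789 to 71296243, plus strand), the enzyme that makes most embryonic retinoic acid and is a marker of leptomeningeal cells, was at 83.3, 83.4 and 63.6 CPM in infarct libraries 1 to 3 (1046, 1136 and 932 counts). The contralateral libraries were at 14.5, 11.7 and 9.78 CPM (278, 179 and 106 counts). The regions were well separated, with the lowest infarct library still above the highest contralateral one. The log2 fold change was 2.67 (SE 0.20, 95% interval 2.22 to 3.12, edgeR adjusted p = 2.90e-06).

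*Aldh1a1* (ENSMUSG00000053279, chromosome 19, 20492715 to 20643465, plus strand), which oxidizes retinaldehyde and other aldehydes, was already the highest of the 9 genes per kilobase in contralateral cortex. Infarct libraries 1 to 3 were at 131, 126 and 149 CPM (1646, 1717 and 2181 counts), and contralateral libraries at 37.2, 53.1 and 51.5 CPM (712, 816 and 558 counts). The groups did not overlap, and the rise was smaller than that of *Aldh1a2*, with a log2 fold change of 1.52 (SE 0.17, 95% interval 1.14 to 1.90, edgeR adjusted p = 3.99e-05). Of the 75-base windows of its transcripts, 1.01% also occur in its neighbor and paralog *Aldh1a7*, which had 0, 2 and 2 counts in infarct and 5, 10 and 10 in contralateral cortex.

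*Aldh1a3* (ENSMUSG00000015134, chromosome 7, 66390890 to 66427517, minus strand), the isoform best known from eye and olfactory development, was near the limit of detection. It had 13, 26 and 11 counts in infarct (1.04, 1.91 and 0.751 CPM) and 14, 15 and 8 in contralateral cortex (0.731, 0.977 and 0.738 CPM). Infarct library 2 stood above the other 5 libraries, which lay close together. The log2 fold change of 0.59 (SE 0.47, 95% interval −0.46 to 1.63, edgeR adjusted p = 0.295) was not called, and its interval holds both no difference and a rise of over 2-fold. Without infarct library 2 the log2 fold change was 0.14.

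The makeup of the dehydrogenase transcripts also differed between the regions. The sum of the 3 genes was 61.6 ± 2.79 CPM per kilobase of exon in infarct (SD, n = 3) and 15.0 ± 1.01 in contralateral cortex. *Aldh1a2* made up 57.9, 58.7 and 48.1% of that sum in the infarct libraries and 45.5, 31.9 and 29.0% in the contralateral libraries. *Aldh1a1* made up the complement, apart from the 0.278 to 1.31% that came from *Aldh1a3*. The size of these shares depends on the exon lengths, which pool all annotated transcripts of a gene (4937 bases for *Aldh1a1* and 2264 for *Aldh1a2*). The *Aldh1a2* share was thus higher in every infarct library than in any contralateral library, although infarct library 3 and contralateral library 1 were only a few points apart. An exact permutation test of 3 against 3 cannot give a two-sided p below 0.1, so the shares and ratios are given as values.

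**Figure D2:**
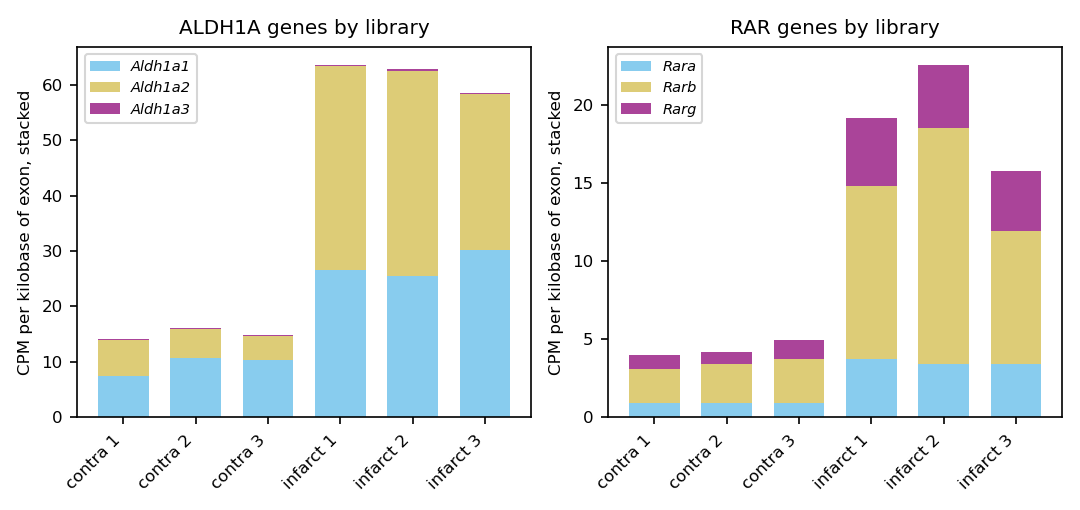
CPM per kilobase of exon, stacked, for the retinaldehyde dehydrogenase genes (left) and the retinoic acid receptor genes (right) in each library, with contra for contralateral. The dehydrogenase bars sum to 58.4 to 63.6 in infarct and 14.1 to 16.1 in contralateral cortex, with a larger *Aldh1a2* part in infarct. The receptor bars grow from 4.0 to 4.96 in contralateral cortex to 15.7 to 22.6 in infarct with like proportions.

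Of the cellular retinoic acid binding proteins, only *Crabp2* was measurable. *Crabp2* (ENSMUSG00000004885, chromosome 3, 87948666 to 87953376, plus strand), which hands retinoic acid to its nuclear receptors, was at 12.3, 7.93 and 6.55 CPM in infarct (154, 108 and 96 counts) and at 1.25, 0.586 and 0.923 CPM in contralateral cortex (24, 9 and 10 counts). Infarct library 1 was the highest, and all infarct libraries were above all contralateral ones. The log2 fold change was 3.24 (SE 0.37, 95% interval 2.40 to 4.08, edgeR adjusted p = 4.58e-05), a 9.45-fold difference. *Crabp1* (ENSMUSG00000032291, chromosome 9, 54764748 to 54773110, plus strand), a paralog that binds retinoic acid in the cytosol, had 1 count in infarct library 3 and 0 in the other 5 libraries, so its expression was not detectable at this depth.

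The clearance enzyme did not reach the threshold. *Cyp26b1* (ENSMUSG00000063415, chromosome 6, 84571414 to 84593908, minus strand), the retinoic acid hydroxylase of the adult brain, was at 18.4, 18.6 and 12.9 CPM in infarct (231, 253 and 189 counts) and at 11.6, 8.46 and 9.41 CPM in contralateral cortex (222, 130 and 102 counts). The infarct libraries were all higher, by a narrow margin between infarct library 3 and contralateral library 1. The log2 fold change was 0.75 (SE 0.22, 95% interval 0.27 to 1.24). The edgeR adjusted p of 0.0114 passed its part of the rule, and the fold change did not. Without contralateral library 2 the adjusted p was 0.0509. *Cyp26a1* (0, 3 and 3 counts in infarct and 3, 0 and 0 in contralateral cortex) and *Cyp26c1* (1, 7 and 5 against 1, 0 and 0), which encode the other hydroxylases of this family, were under the filter.

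The transcripts of *Aldh1a2* and *Crabp2* therefore stood in different proportions to that of *Cyp26b1* in the regions. No such ratio was taken for *Aldh1a1*, whose rise was smaller than that of *Aldh1a2*. Per kilobase, the ratio of *Aldh1a2* to *Cyp26b1* was 10.7, 10.6 and 11.7 in infarct and 2.96, 3.26 and 2.46 in contralateral cortex. The ratio of *Crabp2* to *Cyp26b1* was 2.70, 1.73 and 2.06 in infarct and 0.438, 0.280 and 0.397 in contralateral cortex. Neither ratio overlapped between the regions. These are ratios of transcripts and not of enzyme activity or of retinoic acid.

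*Rarb* (ENSMUSG00000017491, chromosome 14, 16430839 to 16819156, minus strand), the receptor gene whose promoter repeat is shown above, rose with the synthesis genes. It was at 58.4, 79.5 and 44.6 CPM in infarct (733, 1082 and 654 counts) and at 11.4, 13.1 and 14.6 CPM in contralateral cortex (218, 201 and 158 counts). The infarct libraries varied more among themselves and stayed above all contralateral ones. The log2 fold change was 2.23 (SE 0.23, 95% interval 1.71 to 2.74, edgeR adjusted p = 2.23e-05). In GENCODE release M21, exons of genes on the opposite strand, *Top2b* and *Gm48162*, cover 38.4% of the exon bases of *Rarb*. *Gm48162* is not among the genes of the count tables, and the strand setting of the counting is not given in the sources used here. *Top2b* itself was at 154 ± 15.9 CPM in infarct and 140.0 ± 8.08 CPM in contralateral cortex (SD, n = 3, log2 fold change 0.14, edgeR adjusted p = 0.389).

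The order of the levels per kilobase of exon changed between the regions. The exon lengths pool all annotated transcripts of a gene, with 4937 bases for *Aldh1a1* and 2264 for *Aldh1a2*. The order of genes within a region depends on these lengths, and which transcripts were expressed was not tested. In infarct, *Aldh1a2* (33.9 ± 5.04 CPM per kilobase, SD, n = 3), *Aldh1a1* (27.4 ± 2.42) and *Stra6* (25.7 ± 4.88) were highest and overlapped, each with its neighbor in the order. *Rarb* (11.6 ± 3.33) followed, overlapping with *Crabp2* (6.74 ± 2.26), and then *Cyp26b1* (3.11 ± 0.603), *Rbp4* (0.807 ± 0.291) and *Aldh1a3* (0.267 ± 0.131), which did not overlap with their neighbors. In contralateral cortex the order was *Aldh1a1* (9.58 ± 1.78), *Aldh1a2* (5.29 ± 1.05), *Rbp4* (3.72 ± 0.624), *Rarb* (2.47 ± 0.304), *Cyp26b1* (1.84 ± 0.300), *Stra6* (1.10 ± 0.120), *Crabp2* (0.697 ± 0.253) and *Aldh1a3* (0.177 ± 0.0303). There, *Rarb* and *Cyp26b1* were the only neighbors that overlapped. *Stra6* thus moved from sixth place to the leading group, and *Rbp4* from the third place to near the bottom.

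Infarct library 3 was the lowest of the infarct libraries for 6 of the 8 genes tested and the highest for *Aldh1a1* and *Rbp4*. The same library had the lowest sums of the fibroblast and macrophage marker lists among the infarct libraries (7918 and 5815 CPM) and the highest neuronal sum (2152 CPM). The part of these cells in the values of the retinoid genes was not tested. When infarct library 3 was left out, the same 6 genes were called.

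The rest of the pathway was read from a list of 49 other genes of retinoid handling and signaling, of which 34 passed the filter. Of these, 18 rose, 2 fell and 14 were not called, which is 58.8% called beside 46.6% of all genes tested. Their median log2 fold change was 1.36, beside 0.03 for all genes. For 3 genes, which had 3 counts or fewer in every library of a region, the fold change is a bound. Their bounds lay on the same side of the median as their fitted values, so setting them there could not change it.

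Of the 2 other carriers listed, *Stra6l*, which encodes a second retinol binding protein receptor known from liver and intestine, rose with *Stra6*. It had 294, 283 and 324 counts in infarct and 2, 0 and 0 in contralateral cortex, so it was close to absent from contralateral cortex at this depth (edgeR adjusted p = 3.39e-07). The pooled reads gave a ratio of 500.3 with a 95% exact interval of 138 to 4138, which covers counting error only. Contralateral library 1 held the only contralateral reads, and the fitted log2 fold change was 8.72 with it and 11.21 without it. With 3 counts set in each contralateral library, the ratio would be 105. *Ttr*, which encodes transthyretin, the plasma partner of retinol binding protein and a transcript abundant in choroid plexus, had 0, 3 and 3 counts in infarct and 0 in contralateral cortex. Such values are low for a transcript usually detectable in mouse brain RNA, so the counting of *Ttr* is in doubt and nothing is read from it.

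Of the other intracellular binding proteins, *Fabp5*, a fatty acid binding protein that can also carry retinoic acid, rose and was at 224 ± 63.2 CPM in infarct and 29.4 ± 2.16 CPM in contralateral cortex (SD, n = 3, log2 fold change 2.93, edgeR adjusted p = 2.37e-06). *Rlbp1*, the retinaldehyde binding protein of retina and glia, was at 22.6 ± 6.93 and 21.7 ± 5.37 CPM and was not called (log2 fold change 0.07, edgeR adjusted p = 0.837).

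Of 15 retinol and retinaldehyde oxidoreductases, 11 were tested, 7 rose and none fell, beside 25.7% higher and 20.9% lower over all genes. *Rdh10*, the main enzyme that oxidizes retinol to retinaldehyde, was at 30.3 ± 1.17 CPM in infarct and 8.19 ± 1.09 CPM in contralateral cortex (log2 fold change 1.88, edgeR adjusted p = 9.98e-06). *Dhrs3*, which reduces retinaldehyde back to retinol and is itself a retinoic acid responsive gene, was at 168 ± 31.4 and 19.6 ± 3.78 CPM (log2 fold change 3.10, edgeR adjusted p = 1.31e-06). Transcripts for enzymes of both directions of this step thus rose, and enzyme activity was not measured. The per-kilobase ratio of *Dhrs3* to *Rdh10* was 8.40, 8.76 and 6.36 in infarct and 2.53, 4.23 and 3.59 in contralateral cortex, without overlap.

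*Dhrs9*, another retinol dehydrogenase, went from 4, 3 and 2 counts in contralateral cortex to 314, 512 and 460 in infarct (31.3 ± 6.29 CPM, edgeR adjusted p = 1.64e-07), and the ratio of pooled reads was 159 with a 95% exact interval of 83.3 to 348. *Adh7* had 27, 18 and 30 counts in infarct and 2, 2 and 2 in contralateral cortex (edgeR adjusted p = 1.70e-04), and *Adh1* had 26, 12 and 24 against 9, 1 and 3 (log2 fold change 2.41, edgeR adjusted p = 0.00675). Both encode alcohol dehydrogenases that can oxidize retinol. The size of the *Adh1* value depended on single contralateral libraries, being 3.20 without library 1 and 1.94 without library 2. *Rdh5* (log2 fold change 2.06, edgeR adjusted p = 0.00106) and *Dhrs4* (1.35, edgeR adjusted p = 0.00733) also rose. *Bloc1s1*, transcribed in the same direction, shares 25.6% of the exon bases of *Rdh5*. *Rdh11*, *Rdh12*, *Rdh13* and *Rdh14* were not called, with log2 fold changes of −0.00, 0.11, −0.05 and −0.59.

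Of the 3 storage and carotenoid genes tested, 1 fell and none rose, beside 46.6% of all genes called, so the count is no result about this group. *Rpe65*, the retinoid isomerase of the visual cycle, fell from 55, 45 and 39 counts in contralateral cortex to 2, 2 and 3 in infarct (edgeR adjusted p = 2.79e-05), a ratio of pooled reads of 17.9 with a 95% exact interval of 8.45 to 45.3. *Dgat1*, an acyltransferase that can esterify retinol, and *Bco2*, a carotenoid oxygenase, were not called, with log2 fold changes of −0.10 and 0.56. *Lrat*, the main retinol esterifying enzyme, had 0, 1 and 4 counts in infarct and 7, 5 and 1 in contralateral cortex.

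Of the 6 other nuclear receptors, 3 were called, all higher, a share near the 46.6% called over all genes, so the count is no result about receptors and the values are given gene by gene. *Rara* was at 15.4 ± 0.770 CPM in infarct and 4.10 ± 0.113 CPM in contralateral cortex (log2 fold change 1.90, edgeR adjusted p = 1.56e-05), and *Rarg* at 17.4 ± 1.08 and 4.18 ± 0.944 CPM (log2 fold change 2.07, edgeR adjusted p = 2.41e-05). Together with *Rarb*, all genes for retinoic acid receptors were therefore higher, and the per-kilobase sum went from 4.39 ± 0.499 in contralateral cortex to 19.2 ± 3.41 in infarct. *Rarb* made up 59.5 ± 6.66% of it in infarct and 56.3 ± 2.45% in contralateral cortex, overlapping between the regions. *Rxra*, the heterodimer partner, was at 134 ± 9.41 and 33.8 ± 2.28 CPM (log2 fold change 1.99, edgeR adjusted p = 1.73e-06), whereas *Rxrb*, *Rxrg* and *Ppard*, a fatty acid receptor to which *Fabp5* can deliver retinoic acid, were not called, with log2 fold changes of −0.26, 0.11 and 0.31.

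The cofactors of these receptors did not move together. Of 5 tested, 2 were called, beside 46.6% of all genes. The coactivator *Ncoa3* rose (log2 fold change 1.38, edgeR adjusted p = 4.88e-05) and the coactivator *Ncoa1* fell (−1.22, edgeR adjusted p = 8.41e-05). The coactivator *Ncoa2* and the corepressor *Ncor1* had log2 fold changes of −0.81 and −0.77, with adjusted p-values from edgeR of 5.94e-04 and 7.62e-04 and fold changes under 2.

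Of 8 genes listed as retinoic acid responsive, 5 were tested and 4 rose, beside 25.7% higher over all genes. *Tgm2*, tissue transglutaminase, was at 239 ± 46.1 CPM in infarct and 17.9 ± 1.24 CPM in contralateral cortex (log2 fold change 3.73, edgeR adjusted p = 3.37e-07), and opposite-strand exons cover 21.8% of its exon bases. *Cd38*, an NAD-consuming ectoenzyme of immune cells and astrocytes, was at 189.8 ± 75.1 and 5.15 ± 0.383 CPM (log2 fold change 5.20, edgeR adjusted p = 1.23e-06), with infarct library 1 the highest. *Rarres1* (log2 fold change 2.48, edgeR adjusted p = 0.00114) and *Rarres2*, which encodes the chemoattractant chemerin (2.74, edgeR adjusted p = 2.24e-04), were higher at low levels, and opposite-strand exons of *Lrrc61* cover 33.6% of the exon bases of *Rarres2*. *Nrip1*, a nuclear receptor corepressor, was not called (−0.19, edgeR adjusted p = 0.278), and *Hoxa5* and *Stra8* had no counts. Genes listed as responsive also respond to other signals, so their values are no measure of retinoic acid.

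Markers of several cell types differed between the regions in the same libraries. Over all genes tested, 25.7% were called higher and 20.9% lower in infarct. All 14 markers of fibroblasts and leptomeninges rose, among them *Col1a1* (a fibrillar collagen), *Foxc1* (a meningeal transcription factor) and *Slc47a1* (a transporter of leptomeningeal cells), with a sum of 7918 to 9889 CPM in infarct and 288 to 400.0 CPM in contralateral cortex. All 10 macrophage markers rose, with a sum of 5815 to 9618 against 52.2 to 67.9 CPM. Among endothelial markers 5 of 10 rose and 1 fell (622 to 856 against 406 to 469 CPM), and among oligodendrocyte markers 3 of 9 rose and none fell (4217 to 6870 against 2220 to 2615 CPM). The shares called were 60% of endothelial markers and 33.3% each of oligodendrocyte and astrocyte markers, beside 46.6% of all genes. These counts are therefore no result about those 3 cell types. Astrocyte markers were mixed, with 2 of 9 up and 1 down, and their sum of 4885 to 6974 CPM in infarct against 14128 to 14937 CPM in contralateral cortex rested on *Slc1a2*, a glutamate transporter. Without *Slc1a2* (means of 2933 and 12297 CPM), the other 8 astrocyte markers summed to 2509 to 3052 CPM in infarct and 1942 to 2336 CPM in contralateral cortex. The direction of the sum thus reversed, which in turn rested on *Aqp4* (means of 1032 and 323 CPM). Log2 fold changes were positive for *Aqp4*, *Gjb6*, *Sox9* and *Gja1* and negative for *Slc1a3*, *Aldh1l1*, *Slc4a4* and *Ndrg2*. The astrocyte list therefore has no single direction.

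Choroid plexus and ependyma, which express several retinoid genes, were represented at low levels. Of 10 choroid plexus markers, 7 were tested and 5 rose, beside 25.7% higher over all genes. Their sum was 28.1 to 41.3 CPM in infarct and 9.35 to 10.9 CPM in contralateral cortex. Its defining transcription factor *Otx2* was close to absent from both regions, with 1, 0 and 0 counts in infarct and 0 in all contralateral libraries. Of 7 ependymal markers, 4 were tested and rose, beside the same 25.7%. The sum of the 7 was 11.6 to 27.4 against 1.37 to 4.25 CPM, and *Ccdc153* and *Tmem212* were at 0 in all contralateral libraries. The part of any of these cell types in the values of the retinoid genes was not tested.

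**Figure D3:**
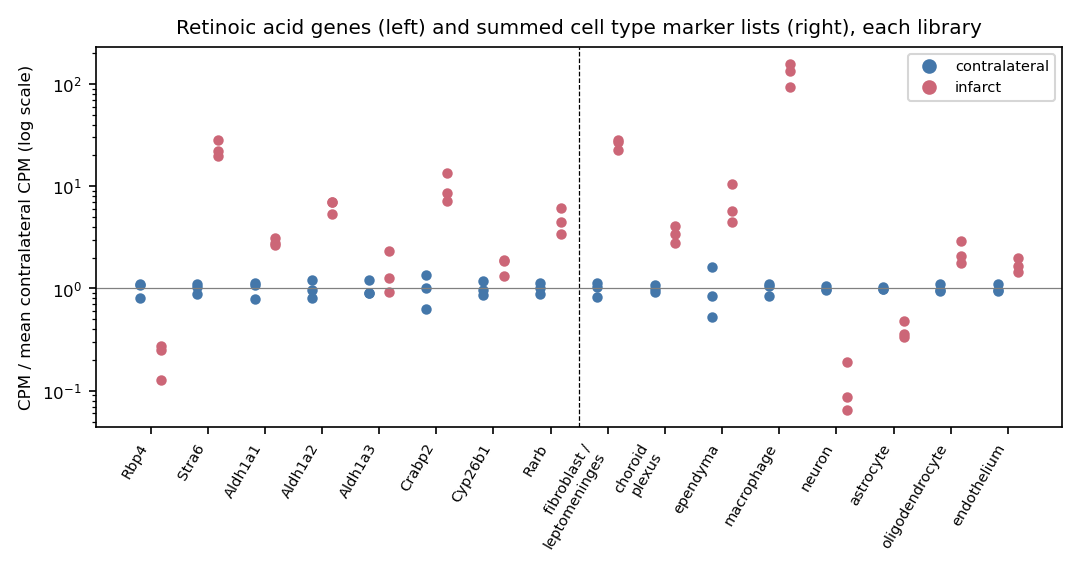
CPM of each library divided by the mean CPM of the contralateral libraries (log scale), for the 8 tested retinoic acid genes at left and for the summed marker lists at right. Contralateral points (blue) lie around 1. Among infarct points (red), *Stra6* and the fibroblast and leptomeningeal sum lie more than 10 times above 1, the macrophage sum is highest, and *Rbp4* and the neuronal sum lie below 1. The astrocyte sum also lies below 1, and without *Slc1a2* it would lie above, which rests on *Aqp4*.

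The genes with the profiles most like each of the 8 were found by the Euclidean distance between mean-centered log2 CPM over the 6 libraries, among 14891 genes with at least 1 count in every library and 10 on average. Since the libraries fall into 2 regions, a small distance mostly means a like difference between the regions, and nothing is read from it about function. Nearest to *Stra6* were *Slc16a9*, *Cpxm1* and *Epsti1* (distances 0.325 to 0.332), and nearest to *Aldh1a2* were *Sat1*, *Cdon* and *Gstt3* (0.190 to 0.208). *Adamts4*, *Fam84b* and *Rnd3* were nearest to *Aldh1a1* (0.190 to 0.290), and *Nmnat3*, *Tnfrsf11a* and *Crispld1* to *Rarb* (0.281 to 0.323). For *Crabp2* the nearest genes, *Galns*, *Nfkbie* and *Uhrf1*, were farther away (0.457 to 0.490). *Rbp4* was nearest to *Rnf113a1*, *Gm42944* and *Spock3* (0.297 to 0.307), *Cyp26b1* to *Det1*, *Nr2c1* and *Akr1b10* (0.248 to 0.277), and *Aldh1a3* to *Gm43719*, *Smim4* and *Socs2* (0.304 to 0.351). None of the 24 neighbors was a gene of the retinoid list, but that list has only 49 other genes, against 14891 searched, so this is no result.

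**Figure D4:**
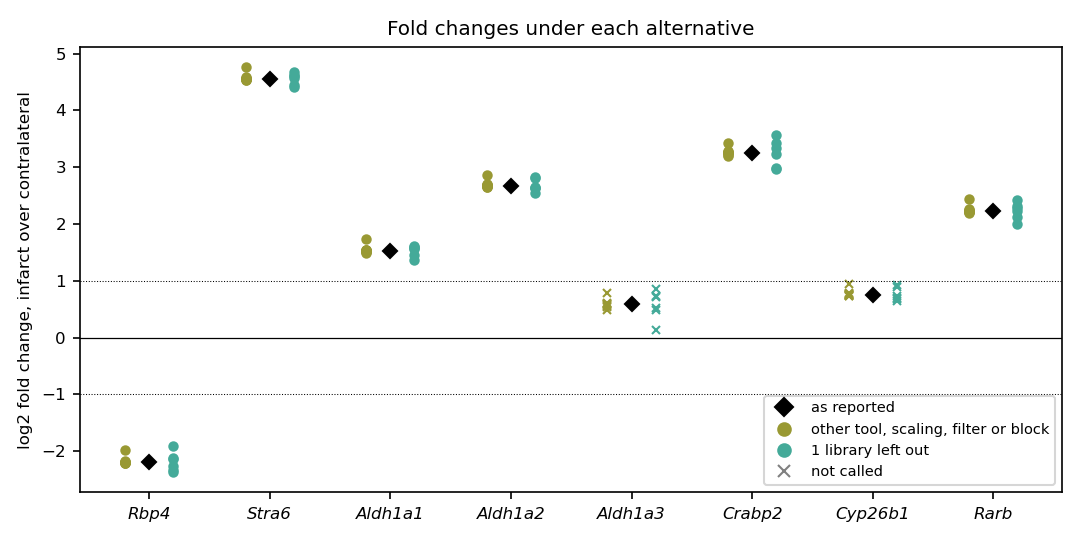
Log2 fold change of infarct over contralateral cortex for the 8 tested genes as reported (black diamonds), with another tool, scaling, filter or block (olive) and with 1 library left out (green). Crosses mark values that were not called, and dotted lines mark a fold change of 2. The 6 called genes keep their side of the dotted lines in each setting shown, *Cyp26b1* stays between 0.65 and 0.95, and *Aldh1a3* varies from 0.14 to 0.86.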

How the data were processed

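RNA was extracted from 3 infarct and 3 contralateral samples, and poly(A) libraries were made with a stranded kit per the labels. The submitters' processing notes name bcl2fastq 2.19, Trimmomatic 0.32, STAR 2.5.2b, HTSeq and DESeq2 with genome build GRCm38, and the annotation, the HTSeq version and its strand setting are not given in the sources used here. The deposited values are raw counts of reads per gene, unscaled. The 5 tally entries that name no gene, 26.6 to 34.3% of tallied reads, were left out of library sizes and tests. Of 46078 Ensembl identifiers, 45229 were found in GENCODE release M21, which gave symbols, coordinates and union exon lengths. Mitochondrial reads made up 2.71 to 3.55% in infarct and 5.50 to 6.66% in contralateral cortex. Log2 CPM correlated across genes at 0.957 to 0.973 within infarct, 0.985 to 0.988 within contralateral cortex and 0.666 to 0.784 between regions, so no 2 libraries were duplicates.

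edgeR 4.0.16 (R 4.3.3) was fitted to all 6 libraries with region as the only term, after TMM scaling and filterByExpr, with robust quasi-likelihood. The biological coefficient of variation was 0.220. Genes were called at a Benjamini-Hochberg adjusted p under 0.05 and a fold change over 2. Standard errors and 95% intervals belong to the fitted coefficient. The fit was tested on simulated data. Alternatives were DESeq2 1.42.0, limma 3.58.1 (voom), other scalings, filters and thresholds, a replicate block, and each library left out. Tables and figures were made with Python 3.11.15, pandas 2.3.3, SciPy 1.17.1 and matplotlib 3.10.9. Levels are compared between genes only per kilobase of exon.

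The genes named are the 9 genes described, 49 other retinoid genes, the paralog *Aldh1a7*, marker genes, and for each tested gene its 3 nearest profiles. Genes and lists were chosen with earlier results of these data known, so they are not independent evidence. Leaving genes with a 0 count out of the profile search was decided after a first search had been seen. *Snap25*, *Rbfox3*, *Top2b* and *Bloc1s1* are named as markers or as overlapping genes. The marker sum without *Slc1a2* was added after the values were seen. Promoter sequences are from RefSeq (GRCm38.p6). Some genes of the lists are counted with their list and not reported here by name.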

Additional observations from a re-analysis of the deposited data

How the results depend on the processing

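All 117 values of the 8 tested genes under up to 15 alternatives each, 6 of which left out 1 library, kept their direction and their side of the threshold used in the report. Log2 fold changes with 1 library left out ranged from 4.41 to 4.68 for *Stra6*, 2.96 to 3.57 for *Crabp2*, 2.55 to 2.83 for *Aldh1a2*, 2.01 to 2.42 for *Rarb*, 1.36 to 1.60 for *Aldh1a1*, 0.65 to 0.92 for *Cyp26b1*, 0.14 to 0.86 for *Aldh1a3* and −2.37 to −1.91 for *Rbp4*. Without the fold threshold, 7 genes were called, *Cyp26b1* being added. With at least 10 counts in every library, 5 of the 9 genes were tested and 4 called, because that filter removes *Rbp4*, *Aldh1a3* and *Crabp2* by construction, and 13 of 26 other retinoid genes were called in place of 20 of 34. With glmTreat against a fold change of 2, *Dhrs4* and *Ncoa1* were no longer called. Library totals in place of TMM moved the median over all genes from 0.03 to 0.23 on the log2 scale and that over the 8 genes from 1.87 to 2.08, and the genes called were 62.1% higher in infarct in place of 55.1%. Over all genes, 5293 to 10111 were called in the alternatives, beside 7255. The depth limits *Crabp1*, which had 1 count in all, and *Aldh1a3*, whose interval spans 0.

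Whether same-numbered samples came from the same mouse could not be decided from the counts. Deviations of same-numbered samples from their region means correlated at −0.19, 0.10 and 0.00 across genes. Differently numbered samples correlated at −0.24 to 0.18. With 3 libraries per region the deviations within a region are not independent, so these values neither show nor exclude pairing. With a replicate block, 3945 genes were higher and 3222 lower in infarct, and 5 of the 8 genes were higher and 1 lower.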
